A study of Harpegnathos saltator with 12 samples.

Results

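Closely spaced ChIP-seq peaks of the transcription factor Kr-h1 formed clusters on the chromatin of Harpegnathos saltator brain, an ant in which adult workers can turn reproductive. Neighbouring peaks on a scaffold were joined while fewer than 5000 bp lay between the end of one and the start of the next, and every group of 3 or more peaks was kept. This gave 181 clusters holding 624 of the 5033 peaks in the list (12.4%). A further 1254 peaks formed pairs under the same distance, and 3155 stood alone. The position of the peaks chose the clusters, so their spacing, span and number follow from the rule and are given as descriptions. The fold enrichment of the peaks was not used in the choice.

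Kr-h1, short for Krüppel homolog 1, carries C2H2 zinc fingers that bind DNA, and its gene is switched on by juvenile hormone through the hormone's receptor Met. In insects it is best known for holding back metamorphosis in juvenile stages, and it is also active in the adult brain, where it has been linked to social behaviour and caste. A ChIP-seq peak marks a stretch of chromatin recovered more often with the antibody than the background predicts. Several peaks close together can belong to 1 regulatory region with separate binding sites, to different regulatory regions, or to 1 broad stretch divided by the peak caller, and a peak list alone does not separate these cases.

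The series comprises 12 samples of central brain in 4 groups of 3: Kr-h1 ChIP from gamergates, Kr-h1 ChIP from workers, input chromatin from gamergates and input chromatin from workers. Gamergates are workers that have become reproductive. Per the labels' protocols, nests were founded with 25 callow females aged 5 days and 3 males without any queen or gamergate, and after 120 days mature oocytes identified the gamergates; earlier collections are also mentioned, and which day applies is not given per sample. The ChIP used a custom antibody against Kr-h1, and how many brains entered a sample is not stated. The labels do not name any allele or strain.

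The deposited values are 1 list with a position and 1 fold enrichment per peak, for the series as a whole. No value belongs to a sample or a caste, so gamergates were not compared with workers, no replicate error can be attached to a peak, and the read depth behind the folds is unknown. Differences between clustered, paired and solitary peaks are therefore given as values without a test, because peaks of 1 list are not replicates. Fold enrichments are the authors' own values, and positions use the scaffold names of an assembly that no header or label identifies; starts may be off by 1 bp. No gene was assigned to a cluster, because the gene table used here names no scaffold.

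Most clusters were small. The 181 clusters comprised 132 of 3 peaks, 31 of 4, 9 of 5, 6 of 6, 2 of 7 and 1 of 9. They lay on 120 of the 393 scaffolds that carried a peak, and 86 of these scaffolds held a single cluster. The median cluster spanned 7153 bp (quartiles 5067 and 9346 bp, range 1829 to 23994 bp). Peaks covered a median of 39.8% of this span (quartiles 30.2 and 55.6%), so that the larger part of a typical cluster was sequence between peaks. The 443 gaps inside clusters had a median of 1444 bp, and 177 of them (40.0%) were under 1 kb. In 23 clusters every gap was under 1000 bp, and in 54 clusters every gap was 1000 bp or longer.

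Just inside the distance limit was a cluster on scaffold708 from 250916 to 259461, held together by a gap of 4987 bp, with folds from 13.0 to 35.7. The next inside were on scaffold79 from 512377 to 525838, with a gap of 4946 bp and folds from 3.40 to 24.1, and on scaffold283 from 1039128 to 1049591, with a gap of 4923 bp and folds from 3.37 to 31.1. Just outside the limit were 3 peaks on scaffold93 from 2980453 to 2989843, parted by 5007 bp, with folds from 3.18 to 5.42. They were followed by 3 peaks on scaffold33 from 571772 to 578838, parted by 5015 bp, with folds from 3.25 to 5.03, and by 3 on scaffold86 from 1347367 to 1355386, parted by 5019 bp, with folds from 6.24 to 14.1.

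Clustered peaks had a higher median fold than the remaining peaks, and a smaller share of them was weak. Their median fold enrichment was 5.14 (quartiles 3.83 and 8.69), against 4.73 for paired peaks (quartiles 3.65 and 7.46) and 4.67 for solitary peaks (quartiles 3.59 and 7.86). A fold of 4 or more was reached by 439 clustered peaks (70.4%), by 813 paired peaks (64.8%) and by 1987 solitary peaks (63.0%); over the whole list the share was 64.4%. A fold of 10 or more was reached by 135 clustered peaks (21.6%), 211 paired peaks (16.8%) and 600 solitary peaks (19.0%), against 18.8% of the whole list. The order of these shares depended on the joining distance: with a limit of 10000 bp, a fold of 10 was reached by 18.6% of clustered, 16.9% of paired and 20.1% of solitary peaks.

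Higher folds were reached by few peaks of any class. A fold of 20 was reached by 49 clustered peaks (7.85%), 81 paired peaks (6.46%) and 226 solitary peaks (7.16%), beside 7.07% of the list. A fold of 50 was reached by 7 clustered peaks (1.12%), 3 paired peaks (0.239%) and 24 solitary peaks (0.761%), beside 0.676% of the list. The 100 strongest peaks of the list included 15 clustered ones, near the 12.4% that clustered peaks made up of the whole list. The highest fold of a clustered peak was 77.7, and that of a solitary peak was 96.2.

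**Figure D1:**
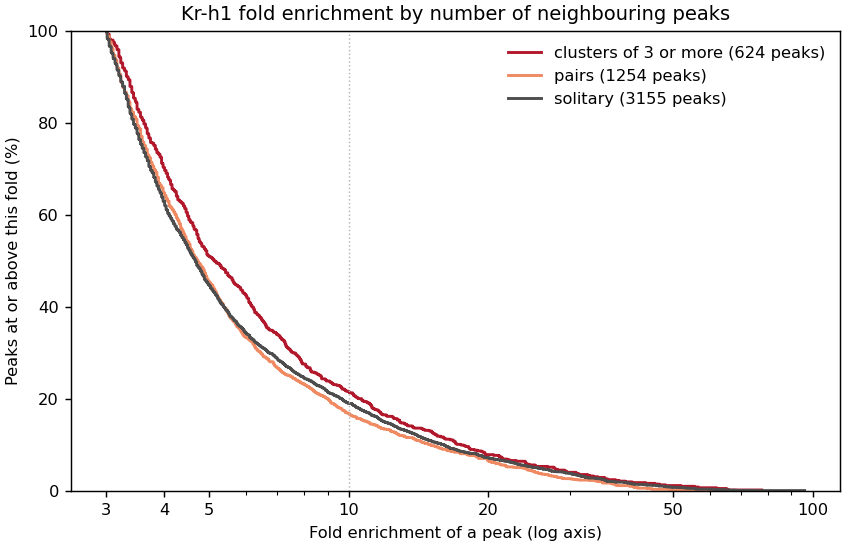
Share of peaks (%, vertical axis) at or above a given fold enrichment (horizontal axis, logarithmic) for the 624 clustered, 1254 paired and 3155 solitary peaks; the dotted line marks a fold of 10. The clustered peaks' curve lies above the others at folds of 4, 10, 20 and 50, and all 3 curves are under 10% from a fold of 20. Only the solitary curve extends beyond a fold of 77.7.

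The folds also differed between classes in a property of the values themselves. In the whole list, 4222 of the folds were whole multiples of a common step of 0.0301 (within 3e-05). Folds off this step made up 10.4% of clustered peaks (65), 15.4% of paired peaks (193) and 17.5% of solitary peaks (553). Among the peaks on the step, the median fold was 5.33 for 559 clustered, 4.88 for 1061 paired and 4.70 for 2602 solitary peaks. The difference in median fold was thus as large without the off-step peaks.

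In width, the typical clustered peak was close to the others, while the share of very wide peaks was higher. The median width was 698.5 bp in clusters, 686.5 bp in pairs and 689 bp for solitary peaks. A width of 2000 bp or more was found for 28 clustered peaks (4.49%), 26 paired peaks (2.07%) and 83 solitary peaks (2.63%), beside 2.72% of the list. The 28 wide peaks lay in 26 clusters, 17 of them were the strongest peak of their cluster, and their median fold was 11.0, against 9.85 for the 109 wide peaks outside clusters. The widest lay on scaffold38 from 2872122 to 2876102, at 3980 bp and a fold of 32.7. Among end peaks of clusters 21 of 362 (5.80%) were this wide, and among inner peaks 7 of 262 (2.67%), beside 2.72% of the list. In clusters of 3 the last peak by coordinate was wide in 12 cases, the first in 5 and the middle one in 5. The first place thus had no more wide peaks than the middle one, so these counts are not read as a trait of cluster edges. Since scaffold direction is arbitrary, first and last carry no biological sense. Across the 624 clustered peaks the rank correlation of fold with width was 0.41, and it was 0.36 across the other peaks; both measures come from the same peak call.

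Peaks of 1 cluster were unequal in strength. The strongest peak had a median of 2.33 times the fold of the weakest (quartiles 1.65 and 3.85), with a range of 1.07 to 25.5. A ratio of extremes can grow with the number of peaks. Its median was 1.98 in clusters of 3, 3.08 in those of 4 and 4.31 in those of 5 or more. This ratio was under 1.5 in 34 clusters and 5 or more in 31. The strongest peak had a median of 1.53 times the fold of the second, and at least 2 times in 46 clusters. The strongest peaks had a median fold of 10.0 and a median width of 900 bp, while the 443 other clustered peaks had a median fold of 4.40 and a median width of 638 bp. These medians are a description, since the strongest peak was picked by its fold. On the log2 scale the SD of fold within clusters was 0.88, against 0.97 over all clustered peaks, and differences between clusters made up 17.9% of the variance.

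The number of strong peaks differed between clusters. At least 1 peak of fold 10 or more was found in 91 clusters (50.3%): 55 had 1 such peak, 28 had 2 and 8 had 3. The other 90 clusters had none. Over the whole list 18.8% of peaks reached this fold and a cluster has at least 3 chances to hold one, so the share of clusters is not read as a sign of strength. In 21 clusters every peak lay below the median fold of the list, 4.73, and in 37 every peak lay at or above it. The remaining 123 clusters mixed peaks from both sides of the median. Over the whole list, 2523 of the 5033 peaks lay at or above the median, so some small clusters would lie on 1 side by that share alone. How many was not computed, so these counts are not read as a sign of strength or weakness. All peaks reached a fold of 10 in 3 clusters. Across the 181 clusters the highest and lowest folds had a rank correlation of 0.42; within a cluster the highest fold cannot be under the lowest, so part of this relation is built in.

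**Figure D2:**
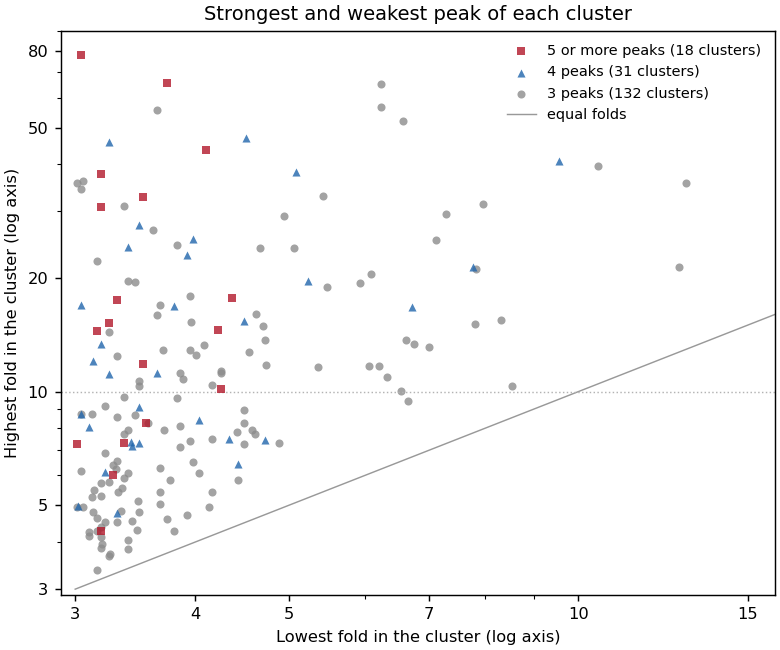
Highest fold (vertical axis, logarithmic) against lowest fold (horizontal axis, logarithmic) of each of the 181 clusters, with squares for clusters of 5 or more peaks, triangles for 4 and circles for 3. The solid line marks equal folds and the dotted line a highest fold of 10; 91 clusters reach the dotted line, and 3 have a lowest fold of 10 or more.

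Clusters with more peaks had a stronger strongest peak. The median of the highest fold was 14.9 in the 18 clusters of 5 or more peaks, 12.1 in those of 4 and 8.72 in those of 3. A peak of fold 10 was present in 13 of the 18 (72.2%), in 18 of the 31 clusters of 4 (58.1%) and in 60 of the 132 clusters of 3 (45.5%). A larger cluster has more peaks to draw its strongest from, and the median fold over all peaks was 4.93, 5.60 and 5.08 in the same order. The share of peaks at a fold of 10 or more was 23.1% in clusters of 5 or more, 21.8% in those of 4 and 21.2% in those of 3, beside 18.8% of the list. At a fold of 20 or more it was 10.6% (11 of 104 peaks), 8.87% (11 of 124) and 6.82% (27 of 396) in that order, beside 7.07% of the list. A width of 2000 bp or more was found for 1 of 104 peaks (0.962%), 5 of 124 (4.03%) and 22 of 396 (5.56%) in that order, beside 2.72% of the list. These counts are too small to read as a trait of cluster size.

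The strongest peak stood at each place about as often as the number of places alone would give. It was an end peak in 111 clusters (61.3%), and end places made up an average of 60.7% of the places in a cluster. In the clusters of 3 the strongest peak was the first in 45, the middle one in 44 and the last in 43. In the 49 clusters of 4 or more, the second strongest peak adjoined the strongest in 23 (46.9%), and adjoining places were on average 43.4% of those open to it. Inner peaks had a median fold of 5.36 and end peaks one of 4.93, while a fold of 10 was reached by 21.4% of inner and 21.8% of end peaks. The widest peak of a cluster was also its strongest in 92 clusters (50.8%); a place in the cluster picked without regard to width would be the strongest in 30.4%.

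Neighbours at short distances were about as unequal in fold as those further apart. Between neighbours inside clusters the stronger peak had a median of 1.61 times the fold of the weaker for the 96 gaps under 500 bp. The median was 1.68 for the 81 gaps of 500 to 1000 bp, 1.45 for the 92 of 1000 to 2000 bp and 1.55 for the 174 of 2000 to 5000 bp. The 73 peaks of clusters with every gap under 1000 bp had a median fold of 4.96 and a median width of 637 bp. The 166 peaks of clusters with every gap of 1000 bp or more had a median fold of 4.85 and a median width of 719 bp, and the 385 peaks of clusters with gaps of both kinds had a median fold of 5.49 and a median width of 705 bp. A peak of fold 10 was present in 47.8%, 44.4% and 53.8% of these 23, 54 and 104 clusters, in the same order. Clusters with more peaks have more chances to hold one. Per peak, the share at a fold of 10 or more was 23.3%, 19.3% and 22.3%.

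The cluster with most peaks and the greatest span lay on scaffold37 from 858242 to 882236, with 9 peaks over 24.0 kb. Its 5 peaks of lower coordinate had folds of 5.91, 9.67, 3.44, 3.74 and 3.04. After them came the strongest clustered peak of the list, from 873146 to 875109, 1963 bp wide and of fold 77.7. A peak of fold 5.57 followed, and then the strong peaks from 878351 to 879422 (fold 48.2) and from 880275 to 882236 (fold 24.1). The 3 strong peaks thus lay in the last 9.09 kb of the cluster, with a peak of 5.57 among them. The ratio of its strongest to its weakest peak, 25.5, was the highest of any of the 181 clusters. A cluster of 9 peaks has more chances of such a ratio than a smaller one.

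On scaffold25, the 7 peaks from 2663469 to 2682762 mixed strong and weak peaks over 19.3 kb, with folds of 3.98, 30.9, 3.19, 16.5, 21.4, 4.91 and 3.22. The strongest, from 2664856 to 2666608, was also the widest at 1752 bp and stood 435 bp from a peak of fold 3.98. On scaffold285 the 7 peaks from 336719 to 355515 ran over 18.8 kb with folds of 27.8, 43.7, 9.79, 4.76, 15.1, 4.46 and 4.10. Here the strong peaks stood at the end of lower coordinate. On scaffold38, the 6 peaks from 2861785 to 2876102 held 5 of fold 3.53 to 6.45 and, at the end of higher coordinate, the widest clustered peak described above.

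The other clusters of 6 peaks were of moderate strength. The highest fold was 17.7 on scaffold113 (85919 to 96657), 17.4 on scaffold55 (81624 to 96467) and 11.8 on scaffold93 (913209 to 926633). It was 7.29 on scaffold539 (258249 to 270171) and 7.26 on scaffold10 (654174 to 665725). The scaffold10 cluster began with 3 peaks of the same fold, 4.01, and its strongest peak was also its widest at 1493 bp. The scaffold539 cluster was the most secluded of these, with no other peak within 108452 bp before it and 62831 bp after it.

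Among the 9 clusters of 5 peaks, scaffold91 from 488820 to 501562 was the strongest, with folds of 3.74, 18.3, 17.0, 65.8 and 6.03. The neighbours of fold 18.3 and 17.0 were 207 bp apart, and the peak of 65.8, from 499498 to 500339, stood 4226 bp further on. Scaffold434 from 222507 to 230609 had its strong peaks side by side, with folds of 37.6 and 28.2 separated by 551 bp, between flanking peaks of 3.19, 5.18 and 3.40. Scaffold695 (324365 to 334371) and scaffold486 (236603 to 248599) likewise had their highest folds next to each other, 10.0 and 15.2 in the first and 11.2 and 14.5 in the second. Scaffold696 (610967 to 616242) had a single peak of 14.6 among folds of 4.22 to 6.15, packed into 5.28 kb. Of the rest, scaffold56 (858611 to 867221) reached 10.2, scaffold61 (404593 to 414461) reached 8.26 and scaffold133 (952779 to 962092) reached 6.03. Scaffold781 (104754 to 115947) had the most even folds of the large clusters, 3.19 to 4.28, all below the median of the list.

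**Figure D3:**
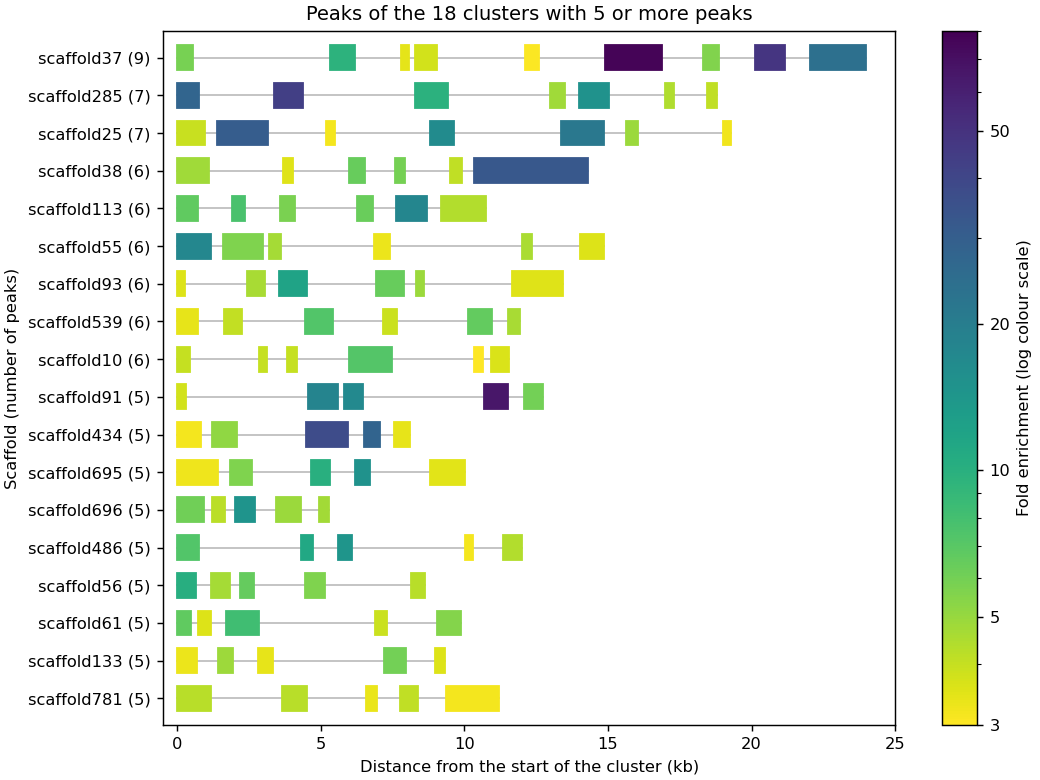
Each row is 1 of the 18 clusters of 5 or more peaks, named by its scaffold with the number of peaks; boxes are peaks drawn to scale by distance from the start of the cluster (kb), coloured by fold enrichment on a logarithmic scale. The dark boxes (high folds, up to 77.7 on scaffold37) stand at the start, in the middle or at the end of their rows, and the scaffold781 row has only pale boxes, of 3.19 to 4.28.

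Among clusters of 3 or 4 peaks, the highest single fold was on scaffold18 from 1466058 to 1473954. It held neighbouring peaks of fold 65.2 and 62.2, of 1276 and 3835 bp, beside a peak of 6.24, and peaks covered 72.0% of its 7896 bp. The cluster on scaffold534 from 1006759 to 1013409 had folds of 56.8, 6.24 and 10.7. Scaffold33 from 1020462 to 1030665 had a middle peak of 55.7 between peaks of 3.65 and 7.35, and the peak of 7.35 was the widest of the 3 at 3050 bp. Scaffold173 from 290311 to 295136 had folds of 52.0, 11.4 and 6.57 and lay over 115 kb from any other peak. Each of these clusters outside scaffold18 had 1 dominant peak, and so did scaffold285 from 389313 to 399880, with folds of 7.17, 4.52, 16.2 and 46.8.

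The 3 clusters in which every peak was strong each held 3 peaks. On scaffold708 from 250916 to 259461 the folds were 13.0, 35.7 and 29.4. On scaffold320 from 282317 to 293315 they were 21.4, 12.7 and 12.9. On scaffold84 from 166873 to 170367 they were 22.0, 39.5 and 10.5, and this was the tightest of the 3, with gaps of 367 and 219 bp and 83.2% of its span covered by peaks.

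At the other extreme stood clusters made only of weak peaks. The lowest highest fold was on scaffold154 from 80313 to 86457, with folds of 3.21, 3.37 and 3.16. Scaffold117 from 426921 to 431688 had folds of 3.68, 3.28 and 3.25, and scaffold8 from 1687683 to 1695076 had 3.44, 3.71 and 3.26. These peaks lay close to the lower limit of the list, whose weakest peak had a fold of 3.00, so weaker neighbours would not be listed. The 3 shortest clusters were also weak to moderate. Scaffold36 from 813661 to 815490 held folds of 3.40, 3.62 and 3.83 within 1829 bp, with gaps of 268 and 239 bp. Scaffold101 from 1427449 to 1429651 held folds of 3.01, 4.96 and 3.29, and scaffold774 from 1010008 to 1012423 held 4.13, 8.14 and 3.86. Other short clusters were stronger. The 23 clusters with every gap under 1000 bp had a median span of 3174 bp. Of these, 47.8% held a peak of fold 10, against 50.3% of all clusters.

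Some clusters lay next to other clusters. By the rule no other peak could lie within 5000 bp, and the median distance to the nearest outside peak was 15677 bp. No outside peak lay within 50 kb of 23 clusters. These include 4 clusters with no other peak on their scaffold, which have no such distance and are left out of the median. Of 61 pairs of successive clusters on a scaffold, 10 were under 20 kb apart, and the median distance was 179 kb. Scaffold38 and scaffold8 each held 5 clusters, with 19 of 68 and 16 of 61 peaks clustered (27.9% and 26.2%). Scaffold113 had fewer peaks but a higher clustered share, 14 of 20 (70.0%). Over the whole list 12.4% of peaks were clustered, and a scaffold named for its clusters has a larger share by that choice. The share was higher than on scaffold113 on scaffold154 and scaffold444 (75% each), which carry few peaks, and 100% on the 4 scaffolds with no other peak.

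The neighbourhoods on scaffold113 and scaffold285, picked out after their values were seen, were unlike each other. On scaffold113 the 3 clusters followed one another from 76001 to 110118, so that 34.1 kb held 14 peaks and none outside a cluster. Its first cluster had folds of 19.7, 7.59, 10.7 and 5.24, the second was the cluster of 6 described above, and the last had folds of 3.02, 3.74, 4.08 and 4.97. The median fold over the 14 peaks was 6.07. On scaffold285 the 3 clusters lay from 336719 to 408847, with 14 clustered and 3 other peaks in 72.1 kb. The median fold of the clustered peaks was 8.48, and 6 of them reached 10, in all 3 clusters. The last cluster had folds of 10.7, 3.50 and 3.84.

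**Figure D4:**
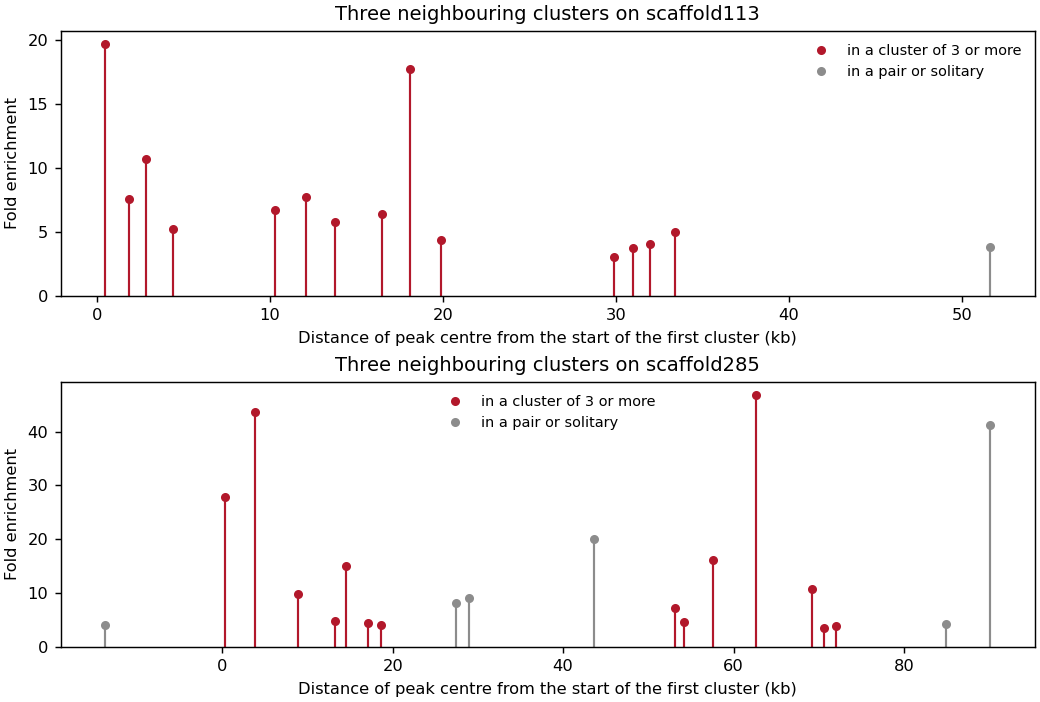
Fold enrichment (vertical axis) of each peak by the distance of its centre from the start of the first cluster (kb, horizontal axis) on scaffold113 (upper panel) and scaffold285 (lower panel); red points are clustered peaks and grey points are paired or solitary ones. The 14 clustered peaks of scaffold113 reach 19.7 and those of scaffold285 reach 46.8, with peaks of 20.0 between and 41.2 beyond the scaffold285 clusters that belong to none.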

How the data were processed

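Kr-h1 ChIP and input were sequenced from central brain of gamergates and workers, and titles gave the groups. Per the labels' protocols, crosslinking took 5 minutes and sonication 12 minutes, and libraries had 13 PCR cycles for ChIP against 5 for input. The submitters' processing notes name Bowtie2 2.2.6 and MACS2 2.1.1.20160309 among the tools; settings, build and pooling of samples are not stated in the labels or headers. The authors deposited 1 peak list with, per the file headers, 1 fold enrichment per peak, a linear ratio, none under 3.00. That limit, and any division of broad regions by the caller, affect which peaks are neighbours.

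Peaks were joined and summarised in Python 3.11.15 with pandas 2.3.3 and numpy 2.4.6; scipy 1.17.1 gave rank correlations and matplotlib 3.10.9 the figures. The grouping was checked on simulated data. Width is end minus start. No significance test was run. Named clusters are those of 5 or more peaks; among those of 3 or 4, the 5 of highest fold and the 3 of highest lowest fold; and the 3 of lowest highest fold, the 3 widest and the 3 shortest. Alternatives were other joining distances, 4 or more peaks, merging at 500 bp and a stricter fold; leaving out 1 cluster, some scaffolds or off-step folds was added after seeing the data. Clusters, lists and measures were chosen with earlier results of these data known. Gene positions and sequence were not used here.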

Additional observations from a re-analysis of the deposited data

How the results depend on the processing

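No paired analysis was possible because the list carries no value per sample; for the same reason no replicate could be left out. The number of clusters and of clustered peaks follows the rule. Joining at 2000 bp gave 76 clusters of 242 peaks, with a median span of 4463.5 bp and 60.2% of it covered. Joining at 10000 bp gave 334 clusters of 1234 peaks, with 12072.5 bp and 21.9%. Asking for 4 or more peaks left 49 clusters of 228 peaks, with 9800 bp and 35.3%. The median ratio of strongest to weakest was then 3.42, and a peak of fold 10 was present in 63.3% of clusters. Both can rise with the number of peaks in a cluster. The strongest stood at an end in 46.9%, where end places average 44.7%. Merging peaks less than 500 bp apart left 131 clusters of 437 peaks, with 7896 bp and 35.8%. A merged peak took the highest fold of its parts, so merging can raise fold by its construction. Keeping peaks at or above the median fold left 56 clusters of 181 peaks, with a median fold of 9.43, a fold of 10 in 48.1% of peaks and 92.9% of clusters, a median width of 839 bp, a ratio of 2.83 and 46.8% covered; this alternative raises fold by its construction. Without the scaffolds of 3 or more clusters, 116 clusters of 397 peaks were left. The median fold of clustered peaks lay between 4.93 and 5.48 in the alternatives other than the stricter list, with 5.48 from merging. Joining at 2000 bp gave 5.41, against 4.91 for paired and 4.67 for solitary peaks. Joining at 10000 bp gave 4.93, against 4.56 and 4.71. The merged and the stricter list also had the highest median in clusters. Both can raise fold by their construction, and the other joining distances regroup the same peaks, so none is counted as support. With a limit of 10000 bp, a fold of 10 was reached by 18.6% of clustered peaks. That was below the 20.1% of solitary peaks and near the 18.8% of the list. The limit at a fold of 3 and the unknown depth restrict which weak neighbours could be seen.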
